A study of Mus musculus with 14 samples.

Results

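Esm1, Gpx8 and Fgl2 are 3 mouse genes whose signal was high in KLRG1hi effector CD8+ T cells and whose part in these cells is less known than that of the granzymes or killer cell receptors. They are 3 of 19937 genes with a probe set on the arrays. Esm1 and Gpx8 were chosen by their difference between wild-type (WT) KLRG1hi and WT KLRG1lo cells, and Fgl2 by its difference between Id2KOBimKO and BimKO cells. Those differences are therefore given below as descriptions, without a test. Each gene had a single probe set, and all 3 were among the 14438 genes tested, which had to exceed an array's 40th percentile of signal on 2 or more arrays. Esm1 and Fgl2 exceeded it on all 14 arrays and Gpx8 on 7.

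The study hybridised 14 single-colour arrays, each with RNA of sorted OT-I cells, which carry a T cell receptor for a peptide of ovalbumin. All cells were C57BL/6J cells that had developed in fetal liver chimeras and were then moved into congenic recipients, which were infected with Listeria expressing ovalbumin. They were sorted on day 6. WT KLRG1hi cells were on 3 arrays and WT KLRG1lo cells on 5. KLRG1lo cells of the genotypes Id2KO, BimKO and Id2KOBimKO were on 2 arrays each. Id2 is an inhibitor of E protein transcription factors, and Bim, encoded by Bcl2l11, is a protein that promotes cell death. There was no KLRG1hi group without Id2 or Bim, so every effect of a knockout below concerns KLRG1lo cells. The labels do not say which cells lost the genes, whether animals were pooled or whether each replicate was its own animal. The p-values then reflect only how far these samples vary, which may be technical.

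Esm1 encodes endocan, a small secreted proteoglycan with a dermatan sulfate chain, best known from activated endothelium, which can bind the integrin LFA-1 on leukocytes. Gpx8 encodes a glutathione peroxidase of the endoplasmic reticulum membrane, which uses peroxide formed during oxidative protein folding. Fgl2 encodes fibrinogen-like protein 2, which exists as a membrane form that can cleave prothrombin and as a form secreted by T cells that binds the inhibitory receptor FcγRIIB on other cells.

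Because the study removed Id2, a regulator of proteins that bind E boxes, the promoter windows of the 3 genes are shown with the motifs found in them in capitals. Each window runs 5′ to 3′ from 250 bases before to 50 bases after the start of the gene in RefSeq on build GRCm38.p6. Esm1 lies on the plus strand at chr13:113209409-113209708, Gpx8 on the minus strand at chr13:113046339-113046638 and Fgl2 on the plus strand at chr5:21372423-21372722.
Esm1: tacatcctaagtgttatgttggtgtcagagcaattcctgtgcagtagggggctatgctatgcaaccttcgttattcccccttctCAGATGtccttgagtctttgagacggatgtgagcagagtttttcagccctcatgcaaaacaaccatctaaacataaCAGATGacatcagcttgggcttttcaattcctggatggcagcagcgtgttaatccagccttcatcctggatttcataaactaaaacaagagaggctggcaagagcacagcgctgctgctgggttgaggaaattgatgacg
Gpx8: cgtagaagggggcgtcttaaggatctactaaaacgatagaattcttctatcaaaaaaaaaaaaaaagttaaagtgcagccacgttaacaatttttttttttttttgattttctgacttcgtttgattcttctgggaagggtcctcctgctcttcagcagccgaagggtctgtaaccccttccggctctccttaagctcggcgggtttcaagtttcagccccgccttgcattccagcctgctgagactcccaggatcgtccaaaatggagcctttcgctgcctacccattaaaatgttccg
Fgl2: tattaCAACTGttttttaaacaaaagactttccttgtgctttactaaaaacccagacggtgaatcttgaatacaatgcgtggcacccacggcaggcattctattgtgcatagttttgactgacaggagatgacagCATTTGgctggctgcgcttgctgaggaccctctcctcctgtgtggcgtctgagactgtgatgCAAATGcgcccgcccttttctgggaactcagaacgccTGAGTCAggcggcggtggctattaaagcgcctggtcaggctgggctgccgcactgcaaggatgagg
The motifs searched on both strands were the E box CANNTG with its forms CAGGTG and CAGCTG, the Runx motif TGTGGT, the T box motif AGGTGT and the AP-1 motif TGANTCA. The Esm1 window held CAGATG at 166 and again at 90 bases before the start. The Fgl2 window held 3 E boxes, CAACTG at 245, CATTTG at 115 and CAAATG at 53 bases before the start, and 1 AP-1 motif, TGAGTCA, at 16 bases before it. None of the 6 motifs was in the Gpx8 window. Of 32851 windows of the same length, 72.3% held CANNTG and 7.81% held TGANTCA, so an E box in such a window is common. The other 4 motifs were in none of the 3 windows. The form CAGGTG was in 20.2% of all windows, the form CAGCTG in 16.3%, the Runx motif in 16.8% and the T box motif in 13.7%. No binding was measured, and a match describes letters only.

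The identity of the sorts was checked first. Klrg1 had a mean log2 signal of 11.04 ± 0.50 (SD, n = 3) on the KLRG1hi arrays and 6.28 ± 0.29 (SD, n = 5) on the WT KLRG1lo arrays. The WT KLRG1lo arrays ran from 6.02 to 6.735. Klrg1 was lower than these on both Id2KO arrays, at 5.48 and 5.70, and on both BimKO arrays, at 5.85 and 5.95. The Id2KOBimKO arrays lay apart, at 5.236 and 6.825, the latter above every WT KLRG1lo array. Id2 was lower on the Id2KO arrays, at 9.80 ± 0.10 (SD, n = 2), than on the WT KLRG1lo arrays, at 10.93 ± 0.20 (SD, n = 5). Bcl2l11 was 7.51 ± 0.21 (SD, n = 2) on the BimKO arrays and 7.60 ± 0.19 (SD, n = 5) on the WT KLRG1lo arrays, so the Bim status rests on the labels. All 7 CD8 T cell markers with a probe set lay above the 40th percentile on every array. The median linear signal of an array was between 49.2 and 56.8.

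Endothelial cells, the textbook source of Esm1, were looked for through 12 markers. Tek and Emcn were above the 40th percentile on no array, and 5 of the 12, among them Pecam1, which leukocytes also carry, were above it on every array. The summed linear signal of the 12 markers was 610 to 752 on the KLRG1hi arrays and 779 to 880 on the WT KLRG1lo arrays. Without Pecam1, which fell in KLRG1hi cells (limma adjusted p = 0.00977), the other 11 summed to 437 to 659 and 445 to 602, ranges that overlap. Fgl2 is also made by macrophages. Of 9 monocyte and macrophage markers, Adgre1 was above the 40th percentile on no array, and their sum was 558 to 665 on the KLRG1hi arrays and 563 to 1000 on the WT KLRG1lo arrays. It was 482 to 504 on the Id2KO arrays and 473 to 647 on the Id2KOBimKO arrays, the groups where Fgl2 was lowest. On the BimKO arrays the sum was 479 on replicate 1 and higher on replicate 2, which also had the higher Fgl2 signal. Regulatory T cells can make Fgl2 as well, and their 5 markers summed to 440 to 713 on the KLRG1hi arrays and 398 to 528 on the WT KLRG1lo arrays. On the Id2KO arrays that sum was 788 to 865. The mean log2 signal of Nrp1 and Il2ra was higher there than on the WT KLRG1lo arrays, at 9.01 against 7.58 and 7.27 against 6.29. Foxp3, the defining gene, was at 5.95 against 6.20, and none of the 5 markers passed the test (limma adjusted p of 0.0733 for Nrp1). B cell markers, 7 in number, summed to 280 to 356 on the KLRG1hi arrays against 346 to 1250 on the WT KLRG1lo arrays. The 5 NK cell markers summed to 1120 to 2390 on the KLRG1hi arrays and 811 to 1120 on the WT KLRG1lo arrays, with Klrb1c at a mean log2 signal of 9.70 against 6.78 and with Ncr1 and Klra8 above the 40th percentile on no array. The 6 dendritic cell markers summed to 1360 to 2480 and 1110 to 1400, with Itgax, which activated T cells also carry, at 10.63 against 9.96 (limma adjusted p = 0.181) and with Clec9a above that percentile on no array. Their part in the values of the 3 genes was not tested.

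Esm1 was high in KLRG1hi cells, low in WT KLRG1lo cells and between these levels in KLRG1lo cells without Id2. The log2 signal of Esm1 was 7.66, 8.03 and 8.58 on the KLRG1hi arrays and 5.78, 6.36, 5.90, 5.79 and 6.37 on the WT KLRG1lo arrays. It was 6.99 and 6.90 on the Id2KO arrays, 5.90 and 6.43 on the BimKO arrays, and 6.48 and 6.72 on the Id2KOBimKO arrays. The lowest KLRG1hi array was thus above each of the 11 KLRG1lo arrays, but KLRG1hi against WT KLRG1lo is the comparison that chose Esm1. In that comparison 4.18% of all genes tested had separate arrays, in either direction. Both Id2KO arrays were above all 5 WT KLRG1lo arrays, and 28.5% of all genes tested had separate arrays between these groups. The group means were 8.09 ± 0.46 (SD, n = 3) for KLRG1hi, 6.95 ± 0.06 (SD, n = 2) for Id2KO, 6.60 ± 0.17 (SD, n = 2) for Id2KOBimKO, 6.17 ± 0.37 (SD, n = 2) for BimKO and 6.04 ± 0.30 (SD, n = 5) for WT KLRG1lo. The last pair in that order overlapped between arrays, and the other neighbouring groups did not. Separate arrays are common between groups of 2, at 37.4% of all genes tested for Id2KOBimKO and Id2KO and 29.7% for Id2KOBimKO and BimKO.

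Gpx8 was measured clearly in KLRG1hi cells alone of the 5 groups, and lay near the level of the 40th percentile in the others. Its log2 signal was 6.44, 7.17 and 7.26 on the KLRG1hi arrays and 5.43, 5.07, 5.37, 5.23 and 5.12 on the WT KLRG1lo arrays. It was 5.12 and 5.08 on the Id2KO arrays, 5.08 and 5.25 on the BimKO arrays, and 5.22 and 4.80 on the Id2KOBimKO arrays. All 3 KLRG1hi arrays were above each KLRG1lo array, while the 4 KLRG1lo groups overlapped one another. The KLRG1hi and WT KLRG1lo arrays chose Gpx8, and 4.18% of all genes tested had separate arrays between them. The group means were 6.96 ± 0.45 (SD, n = 3) for KLRG1hi, 5.24 ± 0.16 (SD, n = 5) for WT KLRG1lo, 5.16 ± 0.12 (SD, n = 2) for BimKO, 5.10 ± 0.03 (SD, n = 2) for Id2KO and 5.01 ± 0.30 (SD, n = 2) for Id2KOBimKO. The 40th percentile lay between 5.14 and 5.37 on the arrays, and the median of probe sets without a gene name between 5.01 and 5.39. Gpx8 was above the 40th percentile on 7 of 14 arrays, the 3 KLRG1hi arrays and 4 of the 11 others. Its difference between the sorts is therefore measured from the background of the arrays, and a further fall among KLRG1lo cells could not have been seen.

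Fgl2 was highest in KLRG1hi cells, as the other 2 genes were, but was lowest where Id2 was absent. Its log2 signal was 8.10, 8.40 and 9.12 on the KLRG1hi arrays and 7.21, 7.52, 6.93, 7.32 and 7.23 on the WT KLRG1lo arrays. It was 6.53 and 6.55 on the Id2KO arrays, 6.92 and 7.93 on the BimKO arrays, and 5.90 and 6.64 on the Id2KOBimKO arrays. The 4 arrays without Id2 were below all 7 KLRG1lo arrays with Id2. Among these, the Id2KOBimKO and BimKO arrays are those that chose Fgl2. Separate arrays, in either direction, were seen for 28.5% of all genes tested between Id2KO and WT KLRG1lo cells. Between Id2KOBimKO and BimKO cells the share was 29.7%. The group means were 8.54 ± 0.53 (SD, n = 3) for KLRG1hi, 7.43 ± 0.72 (SD, n = 2) for BimKO, 7.24 ± 0.21 (SD, n = 5) for WT KLRG1lo, 6.54 ± 0.01 (SD, n = 2) for Id2KO and 6.27 ± 0.53 (SD, n = 2) for Id2KOBimKO. BimKO overlapped WT KLRG1lo and Id2KO overlapped Id2KOBimKO, and the BimKO arrays stood far apart from each other.

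**Figure D1:**
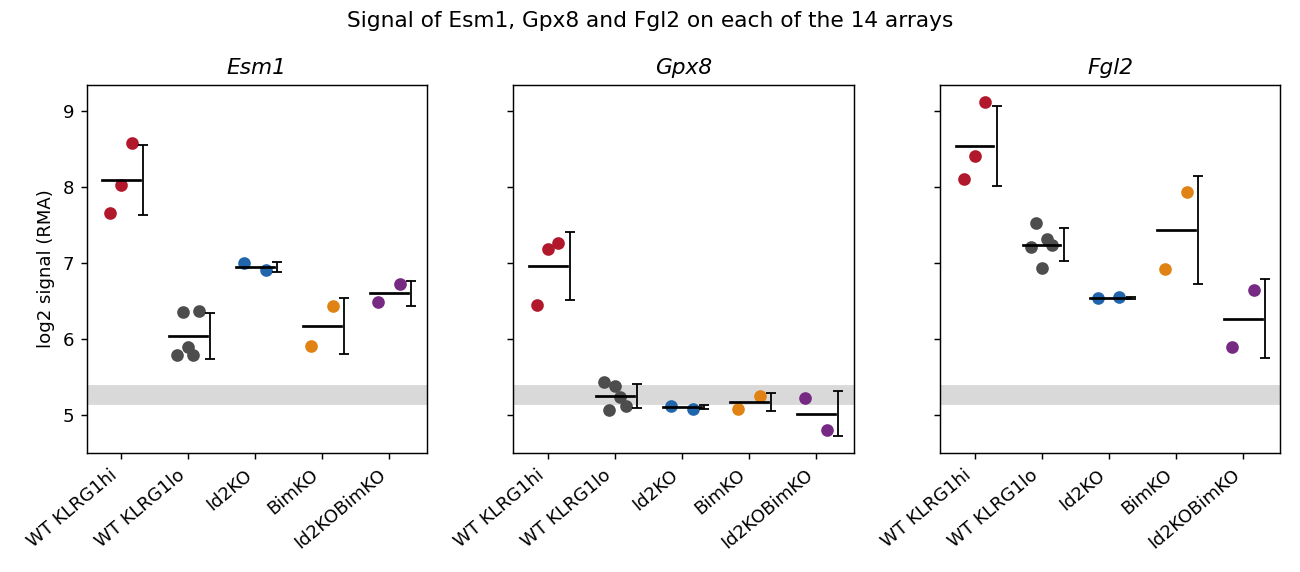
The log2 signal (vertical axis) of Esm1, Gpx8 and Fgl2 is drawn for each of the 14 arrays by group, with the group mean as a line and the SD as a bar; the grey band spans the arrays' 40th percentiles, 5.14 to 5.37. KLRG1hi arrays are highest for all 3 genes, Gpx8 lies in or near the band in every KLRG1lo group, and the arrays without Id2 are raised above WT KLRG1lo for Esm1 and below it for Fgl2.

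The first comparison asks how terminally differentiated KLRG1hi cells differ from KLRG1lo cells of the same genotype. Esm1 was 2.05 log2 units higher in KLRG1hi cells, a 4.14-fold difference and the 7th largest rise of all genes tested. Gpx8 was 1.71 log2 units higher, the 10th largest rise, a 3.28-fold difference measured against a group at background. Both values chose the genes and carry no test here. Fgl2 was 1.30 log2 units higher (SE 0.25, limma adjusted p = 0.0137), a 2.47-fold difference with a 95% confidence interval of 1.72 to 3.54, and the 24th largest rise. It passed the threshold of an adjusted p under 0.05, which 0.942% of the genes tested did in this comparison, 0.679% with a rise and 0.263% with a fall. Since the 3 genes were grouped as enriched in KLRG1hi cells, the call for Fgl2 is not independent evidence of its direction. The call also rests on single arrays: the adjusted p was 0.0684 without KLRG1hi replicate 2 and 0.0516 without replicate 3, with differences of 1.37 and 1.01. With the replicate block the difference was 1.32 and the adjusted p 0.0652. As in any bulk sample, a larger share of cells with a transcript and more transcript per cell cannot be told apart.

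The second comparison asks what loss of Id2 does in KLRG1lo cells with Bim. Esm1 was 0.91 log2 units higher in Id2KO than in WT KLRG1lo cells, 1.88-fold with a 95% confidence interval of 1.32 to 2.66. Fgl2 was lower, with a log2 difference of -0.70 (SE 0.28) and an interval of -1.30 to -0.10. Both had separate arrays in the groups, as did 28.5% of all genes tested, and neither passed the test, with limma adjusted p-values of 0.275 for each. The log2 difference of Gpx8 was -0.14 (95% confidence interval -0.58 to 0.29, limma adjusted p = 0.614). None of the 3 genes was called, where 0.111% of all genes tested were, 0.0831% with a rise. The WT KLRG1lo arrays in this comparison are those that entered the choice of Esm1 and Gpx8. Over 18 other settings Esm1 passed in 1, with WT KLRG1lo replicates 3 to 5 alone as the control (difference 0.93, adjusted p = 0.0488). Those 3 arrays had B cell marker sums of 924 to 1250, against 346 and 365 on replicates 1 and 2, and their part in the call was not tested. The difference of Esm1 was 0.53 in a fit that also held each array's spread.

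The next comparison removes Id2 from cells that lack Bim. Fgl2 was lower in Id2KOBimKO than in BimKO cells by the difference that chose it, -1.16 on the log2 scale, the 9th largest fall of the genes tested. It was -0.66 without BimKO replicate 2, -0.79 without Id2KOBimKO replicate 1 and -1.67 without BimKO replicate 1. BimKO replicate 2 also had the higher B cell and regulatory T marker sums of the pair, 1330 against 342 and 890 against 416. Its monocyte and macrophage sum was likewise the higher, against 479 on replicate 1. Within the Id2KOBimKO pair that sum was 647 on replicate 2 and 473 on replicate 1, with Fgl2 at 6.64 and 5.90. Among the KLRG1hi arrays the lowest such sum, 558 on replicate 3, went with the highest Fgl2, 9.12. The part of these marker sums in the value was not tested. Esm1 was 0.43 log2 units higher (SE 0.29, 95% confidence interval -0.17 to 1.03), with both Id2KOBimKO arrays above both BimKO arrays, as 29.7% of the genes tested had separate arrays here. Its difference was 0.17 without BimKO replicate 1 and 0.70 without BimKO replicate 2. Gpx8 had a difference of -0.15 (95% confidence interval -0.67 to 0.36) and overlapping arrays. Neither Esm1 nor Gpx8 passed, with limma adjusted p-values of 1. In this comparison 0% of the genes tested were called by limma, and 262 had an unadjusted p under 0.05.

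Whether the size of the Id2 differences depended on Bim was tested as an interaction. It was -0.48 for Esm1 (95% confidence interval -1.26 to 0.31, limma adjusted p = 0.726) and -0.01 for Gpx8 (95% confidence interval -0.69 to 0.67, limma adjusted p = 0.991). For Fgl2, whose choice used these arrays, it was -0.46. Of all genes tested, 0.0277% were called for this interaction. These intervals are wide, and an equal effect in both backgrounds is not shown by them.

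After loss of Bim alone, none of the 3 genes differed past the threshold. The log2 difference between BimKO and WT KLRG1lo cells was 0.13 for Esm1 (95% confidence interval -0.38 to 0.63), -0.08 for Gpx8 (95% confidence interval -0.51 to 0.35) and 0.19 for Fgl2 (95% confidence interval -0.41 to 0.79). The limma adjusted p-values were 0.869, 0.908 and 0.831. The WT KLRG1lo arrays entered the choice of Esm1 and Gpx8, and the BimKO arrays that of Fgl2, so these values are not independent of the choice. In this comparison 0% of all genes tested were called by limma, with 998 at an unadjusted p under 0.05. Between Id2KOBimKO and Id2KO cells the difference of Esm1 was -0.35 (limma adjusted p = 1), with separate arrays, as for 37.4% of all genes tested. It was -0.09 for Gpx8 and -0.27 for Fgl2, with overlapping arrays and limma adjusted p-values of 1, where 0.0277% of the genes tested were called. The Id2KOBimKO arrays had also entered the choice of Fgl2.

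**Figure D2:**
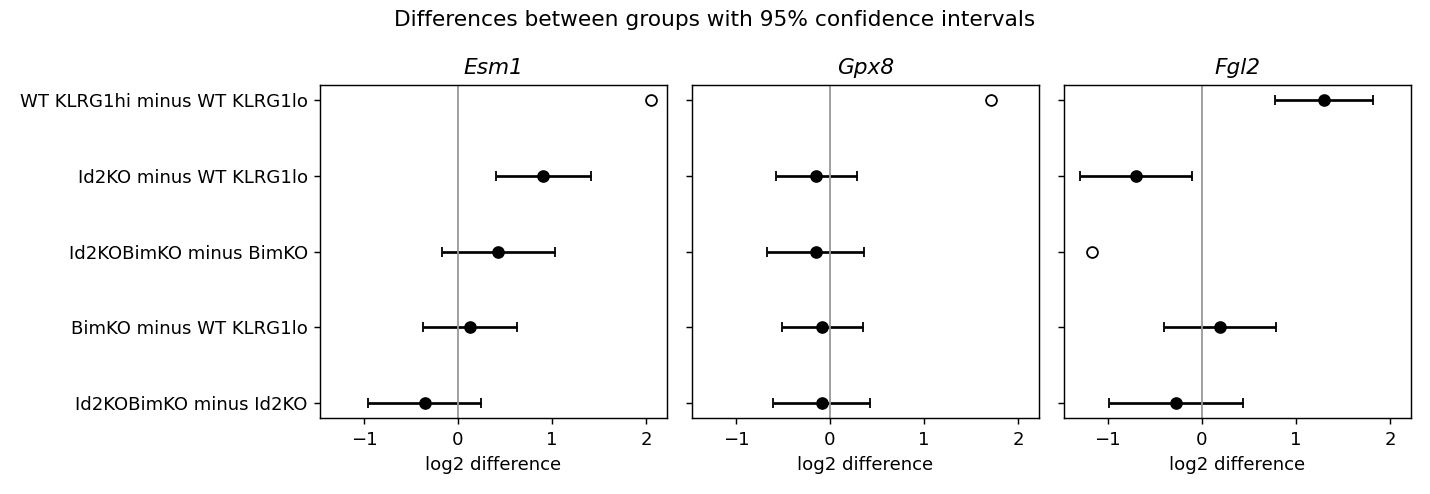
Log2 differences between groups (horizontal axis) are drawn for each gene and comparison (vertical axis), with 95% confidence intervals as bars; open points without bars are the differences that chose the gene. Esm1 and Fgl2 lie on opposite sides of 0 for Id2KO minus WT KLRG1lo, at 0.91 and -0.70, and Gpx8 lies between -0.15 and -0.08 in the 4 comparisons among KLRG1lo groups.

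Esm1 and Gpx8 are near neighbours in the genome, a feature the choice of the genes did not use. In RefSeq order on mouse chromosome 13 they flank the granzyme genes Gzma and Gzmk, as Gpx8, Gzma, Gzmk and Esm1. Granzymes are proteases released from cytotoxic granules. Gpx8 lies within the span of Cdc20b, which is on the opposite strand, and the sources used here do not give the strand that the probe sets read. The 6 genes with a probe set on either side of each of Esm1 and Gpx8 gave 14 other genes, of which 12 were tested.

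Of these 12 neighbours, 2 rose in KLRG1hi over KLRG1lo cells and none fell, where 0.679% of all genes tested rose and 0.263% fell. The log2 signal of Gzma was 12.54, 12.77 and 12.82 on the KLRG1hi arrays and 10.38, 10.63, 10.37, 10.41 and 10.04 on the WT KLRG1lo arrays. That of Gzmk was 9.26, 9.77 and 9.94 on the KLRG1hi arrays and 8.59, 9.01, 8.12, 7.94 and 8.22 on the WT KLRG1lo arrays. The KLRG1hi arrays were above all WT KLRG1lo arrays for both granzymes, as 4.18% of all genes tested had separate arrays in this comparison. Gzma rose by 2.35 log2 units (SE 0.24, limma adjusted p = 3.46e-05) and Gzmk by 1.29 (SE 0.25, limma adjusted p = 0.0185). The call for Gzmk was lost without KLRG1hi replicate 2 or 3, without WT KLRG1lo replicate 3, 4 or 5 (adjusted p 0.0509 to 0.139 from limma) and with the replicate block (adjusted p = 0.189). Among genes with a probe set, the 4 adjacent genes had differences of 1.71, 2.35, 1.29 and 2.05 in genome order. Next to Gpx8 on the outer side, the microRNA gene Mir449a had a difference of -0.11 (limma adjusted p = 0.994), and Cspg4b, next to Esm1, was not tested. Beyond these, Cdc20b had a difference of 0.65 (limma adjusted p = 0.0513) and Snx18, which encodes a sorting nexin, 0.71 (limma adjusted p = 0.0628), both with separate arrays and both short of the threshold. The median over the 12 neighbours was 0.28, and over all genes tested 0.00.

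Without Id2 the 4 adjacent genes had differences of unlike size and sign, which were not tested against each other. Gzmk was 9.43 and 9.19 on the Id2KO arrays, above every WT KLRG1lo array as Esm1 was. Arrays were separate in this comparison for 28.5% of all genes tested. The difference of Gzmk, 0.94, was close to the 0.91 of Esm1. Gzma had a difference of 0.39. Gpx8 had one of -0.14, at the background of the arrays, where a fall could not have been seen. In Id2KOBimKO against BimKO the values were 0.47 for Gzmk, 0.43 for Esm1, 0.11 for Gzma and -0.15 for Gpx8. No neighbour passed in either comparison. The comparison of Id2KO cells shares the WT KLRG1lo arrays with the comparison of the sorts, and the comparison within BimKO does not.

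**Figure D3:**
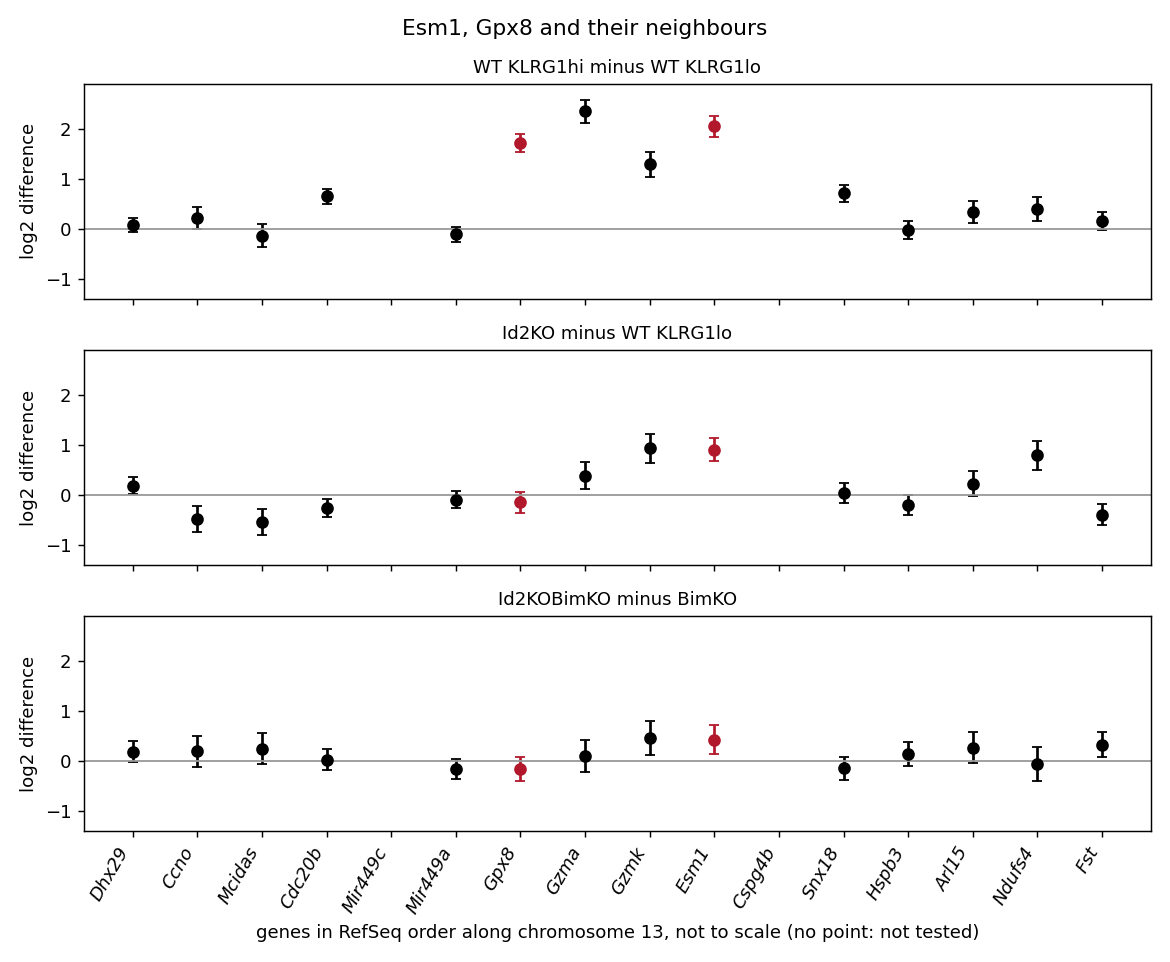
The log2 difference (vertical axis, bars 1 SE) of Esm1 and Gpx8, in red, and their neighbours, in black, is drawn in gene order along chromosome 13 for 3 comparisons. Gpx8, Gzma, Gzmk and Esm1 stand above the other genes between KLRG1hi and KLRG1lo cells, at 1.29 to 2.35, while in Id2KO cells Gzmk and Esm1 lie at 0.94 and 0.91 and Gpx8 at -0.14.

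Fgl2 lies on chromosome 5 inside the span of Ccdc146, whose mean log2 signal was between 3.77 and 3.90 in the 5 groups and which was not tested. Of 9 tested neighbours none passed in any of the 3 main comparisons. The largest differences between KLRG1hi and KLRG1lo cells were 0.60 for Gsap and 0.48 for Ptpn12, a protein tyrosine phosphatase, both with overlapping arrays.

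The protein families and partners of the 3 genes, with granzymes and suppressive and co-inhibitory T cell genes, were followed through 11 gene lists. Without Esm1, Gpx8 and Fgl2 these held 154 distinct tested genes. In KLRG1hi over KLRG1lo cells 9 of the 154 rose, or 5.84%, against 0.679% of all genes tested, and none fell. Of these 9, 3 were granzymes and 4 were suppressive and co-inhibitory T cell genes. Among the lists of families and partners, only those of LFA-1 and of Fc gamma receptors held a call, 1 each. In Id2KO against WT 1 of the 154 rose, where 0.0831% of all genes did, and in Id2KOBimKO against BimKO none passed. A list chosen with results known says nothing about its pathway beyond these counts.

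Endocan is made by adding a glycosaminoglycan chain to the Esm1 protein. None of 21 tested genes of chondroitin and dermatan sulfate synthesis passed between KLRG1hi and KLRG1lo cells. Their median difference was 0.10, against 0.00 over all genes tested. Chsy1, which polymerises the chondroitin chain, had a mean of 10.93 ± 0.17 (SD, n = 3) in KLRG1hi cells against 10.41 ± 0.15 (SD, n = 5) in KLRG1lo cells, a difference of 0.52 (limma adjusted p = 0.107). Ust, a sulfotransferase that acts on these chains, had a difference of 0.47 (limma adjusted p = 0.259). Of 20 tested proteoglycan core proteins, none other than Esm1, which was chosen by this difference, passed, and the median without it was -0.08. Srgn, the proteoglycan that packs granzymes in granules, had a difference of 0.23 (limma adjusted p = 0.883) from a mean of 11.79 ± 0.17 (SD, n = 5) in WT KLRG1lo cells.

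LFA-1, the integrin that endocan can bind, consists of the chains encoded by Itgal and Itgb2. Of 14 tested genes for LFA-1, its ligands and its activation, 1 rose between KLRG1lo and KLRG1hi cells. This was Rap1b, a small GTPase that activates integrins, with means of 11.71 ± 0.23 (SD, n = 3) and 10.97 ± 0.25 (SD, n = 5) and a difference of 0.74 (SE 0.16, limma adjusted p = 0.0357). Itgb2 had a difference of 0.66 (limma adjusted p = 0.273) and Itgal 0.44 (limma adjusted p = 0.775), with overlapping arrays. The median over the list was 0.15. The call for Rap1b was lost without KLRG1hi replicate 2 or 3, without WT KLRG1lo replicate 1, 3, 4 or 5 (limma adjusted p 0.0501 to 0.177) and with the replicate block (adjusted p = 0.419).

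Of the 8 glutathione peroxidases 6 were tested. Leaving out Gpx8, which was chosen by this difference, none of the others passed between KLRG1hi and KLRG1lo cells, and their median was -0.14. Gpx7, the closest relative of Gpx8 and also a protein of the endoplasmic reticulum, had a difference of -0.20 (limma adjusted p = 0.981). Gpx1, the main cytosolic enzyme, had a difference of -0.14 (limma adjusted p = 1), and Gpx4, which reduces lipid peroxides, 0.15 (limma adjusted p = 1). Of 23 tested genes of oxidative protein folding in the endoplasmic reticulum, none other than Gpx8 passed, and the median without Gpx8 was 0.16. Of 21 tested genes of a further list for peroxide defence none passed, with a median of 0.04.

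Fgl2 was the only 1 of 13 tested genes with a fibrinogen domain that passed between KLRG1hi and KLRG1lo cells, and the median of the others was -0.08. Since Fgl2 was grouped as enriched in KLRG1hi cells, its call does not set it apart from this family independently. Its receptor gene Fcgr2b rose too. The log2 signal of Fcgr2b was 6.44, 6.77 and 7.60 on the KLRG1hi arrays and 5.43, 5.68, 5.84, 5.82 and 5.66 on the WT KLRG1lo arrays. These did not overlap, as for 4.18% of all genes tested. The rise of Fcgr2b was 1.25 log2 units (SE 0.21, limma adjusted p = 0.00545). In Id2KO against WT its difference was -0.12, and in Id2KOBimKO against BimKO it was -0.47 (SE 0.29). Fcgr2b passed in neither. Its arrays were separate in the latter, as for 29.7% of all genes tested. The other 3 Fc gamma receptor genes tested did not pass between KLRG1hi and KLRG1lo cells. Of these, Fcer1g, the signalling chain that activating Fc receptors share, had a difference of 0.84 (limma adjusted p = 0.757) with overlapping arrays, and Fcgr3 0.23 (limma adjusted p = 0.827). B cells and macrophages also carry Fcgr2b, and the summed signals of their markers on these arrays are given above.

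The coagulation genes, into which the prothrombinase form of Fgl2 falls, had no call among 15 tested genes, and a median of -0.04. F2r and F2rl2, which encode thrombin receptors, had differences of 0.53 (limma adjusted p = 0.0954) and 0.64 (limma adjusted p = 0.0879). Both were named for having the smallest unadjusted p of the list. Their arrays were separate, as for 4.18% of all genes tested.

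Of 19 tested suppressive and co-inhibitory T cell genes, 4 rose in KLRG1hi over KLRG1lo cells and none fell, against 0.679% and 0.263% of all genes tested. Prdm1, the transcription factor Blimp-1, rose by 0.95 log2 units (limma adjusted p = 0.00267), Havcr2, the inhibitory receptor TIM-3, by 0.95 (limma adjusted p = 0.0178) and Cd244a, the receptor 2B4, by 1.45 (limma adjusted p = 0.0259). Entpd1, the ectoenzyme CD39 that breaks down extracellular ATP, rose by 1.03 (limma adjusted p = 0.0467). Of the 19 genes, 10 had a positive difference between KLRG1hi and KLRG1lo cells. The inhibitory receptor genes Ctla4 and Pdcd1 had negative ones, -0.83 (limma adjusted p = 0.0954) and -0.43 (limma adjusted p = 0.544). In Id2KO against WT, Ctla4 rose by 1.38 (limma adjusted p = 0.0306). Of these calls, that for Entpd1 was lost without KLRG1hi replicate 2 or 3 or WT KLRG1lo replicate 1, 3, 4 or 5 (limma adjusted p 0.0747 to 0.319), that for Cd244a without KLRG1hi replicate 2 or 3 or WT KLRG1lo replicate 1, 3 or 5 (0.0561 to 0.0829), and that for Havcr2 without KLRG1hi replicate 2 or 3 or WT KLRG1lo replicate 5 (0.0513 to 0.0607). The call for Ctla4 was lost without either Id2KO array or without WT KLRG1lo replicate 1, 3, 4 or 5 (limma adjusted p 0.0534 to 0.793). With the replicate block the adjusted p was 0.0652 for Prdm1, 0.189 for Havcr2, 0.133 for Entpd1 and 0.265 for Ctla4. The median of the list was 0.03 between KLRG1hi and KLRG1lo cells. Of the granzymes, 4 of 10 were tested and 3 rose, Gzma, Gzmk and Gzmb, the last from a mean of 10.30 ± 0.35 (SD, n = 5) to 11.80 ± 0.14 (SD, n = 3) (limma adjusted p = 0.00044), while Gzmm had a difference of -0.14.

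Entpd1, like Fgl2, was highest on average in KLRG1hi cells, followed by BimKO and WT KLRG1lo cells, and lowest in the groups without Id2. The log2 signal of Entpd1 was 7.05, 8.07 and 8.35 on the KLRG1hi arrays and 6.74, 7.01, 6.59, 6.99 and 6.63 on the WT KLRG1lo arrays. It was 5.79 and 5.99 on the Id2KO arrays, 6.79 and 7.50 on the BimKO arrays, and 6.03 and 6.14 on the Id2KOBimKO arrays. As for Fgl2, whose choice used the Id2KOBimKO and BimKO arrays, all 4 arrays without Id2 were below the 7 KLRG1lo arrays with it. Separate arrays were seen for 28.5% of all genes tested in the Id2 comparison with Bim and 29.7% in that without it. Entpd1 passed in neither, and was named for its small unadjusted p. Unlike for Fgl2, 1 KLRG1hi array of Entpd1, at 7.05, lay below a BimKO array. The differences of Entpd1 were -0.90 in cells with Bim and -1.06 in cells without it.

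**Figure D4:**
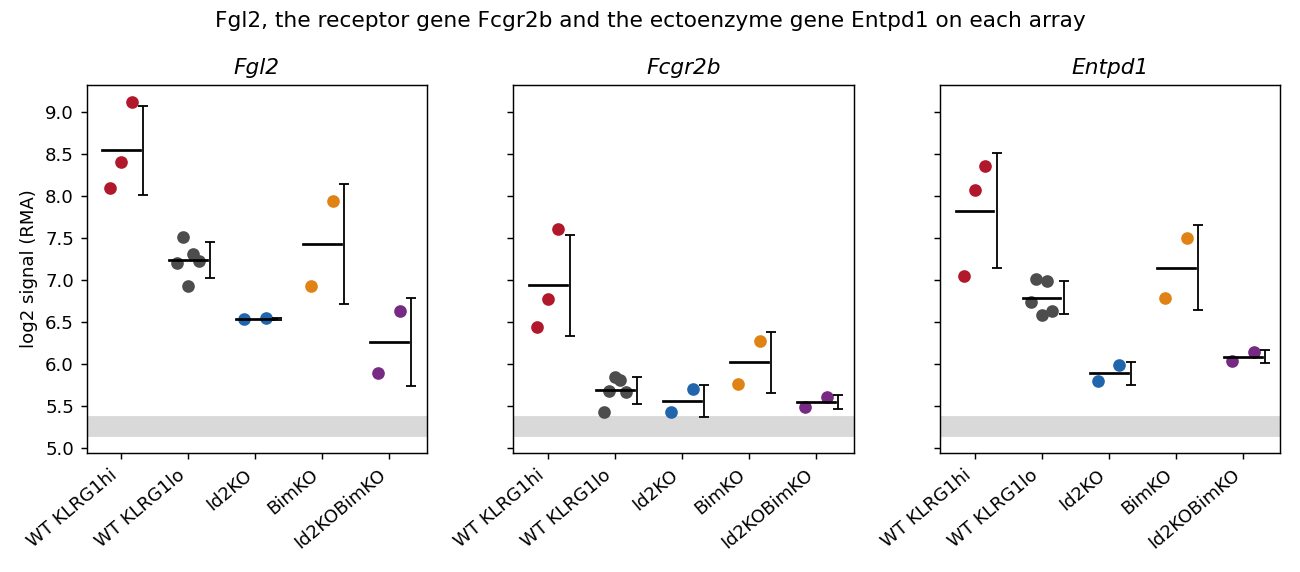
The log2 signal (vertical axis) of Fgl2, its receptor gene Fcgr2b and the ectoenzyme gene Entpd1 is drawn for each array by group, with the mean as a line, the SD as a bar and the arrays' 40th percentiles as a grey band. The KLRG1hi mean is the highest for all 3 genes, and the arrays without Id2 are the lowest for Fgl2 and Entpd1.

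The genes whose pattern over the 14 arrays was most like that of each of the 3 were ranked by Pearson's r of log2 signal, given as a description, since the arrays share their sort groups. For Esm1 they were Itgam at 0.95, As3mt at 0.92, Rap1gap2 at 0.92, Klra3 at 0.91 and F2rl2 at 0.90. Itgam encodes the integrin chain CD11b, and its means of 10.05 ± 0.58 (SD, n = 3) in KLRG1hi, 8.81 ± 0.03 (SD, n = 2) in Id2KO, 8.53 ± 0.10 (SD, n = 2) in Id2KOBimKO and 7.73 ± 0.21 (SD, n = 5) in WT KLRG1lo cells had the order seen for Esm1, except that BimKO, at 7.54 ± 0.14 (SD, n = 2), was lowest. For Gpx8 the genes were Prdm1 at 0.96, Klra3 at 0.95, Cdca8 at 0.95, Klrb1c at 0.95 and Lat2 at 0.94. For Fgl2 they were Zfp367 at 0.95, Mki67 at 0.94, Entpd1 at 0.94, Kif23 at 0.93 and the histone gene H2bc3 at 0.93. Mki67 and Kif23 are genes of dividing cells.

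These likenesses were also read from the 11 KLRG1lo arrays alone, which are part of the 14. The comparison that chose Fgl2 lies within these 11, while Esm1 was chosen by KLRG1hi against WT KLRG1lo. The counts of shared genes are therefore shaped by the choice and are given as a description. Of the 50 genes most like Fgl2 over 14 arrays, 19 were also among the 50 most like it over the 11, with Entpd1 first at an r of 0.90 and Mki67 at rank 3 with 0.89. For Esm1 none of the 50 was. Gpx8 lay at the background of these 11 arrays, so its likenesses within KLRG1lo cells cannot be read. Esm1 and its neighbour Gzmk had an r of 0.88 over 14 arrays and 0.84 over the 11, and over all 14 the pair Esm1 and Gpx8 had 0.82. The log2 spread of an array, its interquartile range over all probe sets, ran from 2.44 to 2.87 and had an r of 0.73 with Esm1 over the 11 KLRG1lo arrays, against -0.30 for Fgl2, and its part in these values was not tested.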

How the data were processed

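RNA was extracted with TRIzol, amplified in successive rounds and labelled with biotin, per the labels' protocols. The values deposited by the authors were RMA intensity, linear as the values show, for 34760 probe sets, and the submitters' processing notes name RMA and mm9. Values were turned into log2 with no offset. A gene took the probe set with the highest mean, and names were updated by Entrez number through RefSeq (GRCm38.p6), which also gave gene order and promoter windows, but no probe positions.

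Group means were fitted to all 14 arrays with limma 3.58.1 in R 4.3.3 (data.table version 1.17.8), with 9 residual and 7.99 prior degrees of freedom and two-sided tests. The threshold was 0.05 after Benjamini-Hochberg adjustment across the 14438 tested genes. The script was tested on simulated data. For arrays, their number limits the precision.

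The genes, lists and tests were chosen with earlier results of these data known. The named genes were the 3 genes, Klrg1, Id2 and Bcl2l11, 6 neighbours on each side, up to 4 members per list with the smallest unadjusted p, and the 5 genes most like each. Predicted and clone names were passed over. Other settings tried were no filter and a 60th percentile filter, quantile normalization, a robust fit with a trend, a replicate block, a model of the compared groups alone, an offset of 16, probe sets averaged per gene, the array spread as a covariate, subsets of the WT KLRG1lo arrays, and each array left out.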

Additional observations from a re-analysis of the deposited data

Results flagged for a closer look

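Among 120 genes examined in the 5 WT KLRG1lo arrays, 5 had 1 array far from the others, a share near the 1 in 20 groups that chance gives. None was Esm1, Gpx8 or Fgl2. Cdc20b, whose span holds Gpx8, had a log2 signal of 5.67 on replicate 5 against 6.02 to 6.13 on the others. Chsy1 of chondroitin synthesis was at 10.15 on replicate 3 against 10.43 to 10.52, and Ust at 7.36 on replicate 2 against 6.74 to 6.90. Erp44 of the endoplasmic reticulum was at 8.35 on replicate 1 against 8.57 to 8.60. Napepld near Fgl2 was at 5.12 on replicate 4 against 4.76 to 4.85.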

How the results depend on the processing

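The differences that chose Esm1 and Gpx8, between KLRG1hi and KLRG1lo cells, ran from 1.81 to 2.27 and from 1.38 to 1.97 over the other settings, with no test. That of Fgl2 in this comparison kept its direction in all 19 but lost the call in 4: 1.32 with the replicate block (adjusted p = 0.0652), 1.18 with WT KLRG1lo replicates 1 and 2 only (adjusted p = 0.332), and without KLRG1hi replicate 2 or 3. With single arrays left out it ran from 1.01 to 1.52, and over all settings its adjusted p from 0.00242 to 0.332. In Id2KO against WT, Esm1 passed in 1 of 18 settings, at 0.93 with WT KLRG1lo replicates 3 to 5 only (adjusted p = 0.0488; 0.0488 to 1 over all), and its difference was lowest, 0.53, with array spread as a covariate. Among KLRG1lo groups, values of Gpx8 near 0 changed sign. Id2KOBimKO minus Id2KO was 0.036 with array spread as a covariate and -0.30 to 0.12 with arrays left out. The interaction was 0.17 with that covariate and -0.22 to 0.20 with arrays left out. With arrays left out, Id2KOBimKO minus BimKO ran from -0.36 to 0.055 and BimKO minus WT from -0.16 to 0.004 for Gpx8, and BimKO minus WT from -0.14 to 0.39 for Esm1.

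Against 12 list genes called between KLRG1hi and KLRG1lo cells, Esm1, Gpx8 and Fgl2 included, 6 were called with the replicate block, 20 with the spread covariate, 4 with WT KLRG1lo replicates 1 and 2 only and 6 to 15 with arrays left out. The count fell to 6 without KLRG1hi replicate 2 and to 7 without KLRG1hi replicate 3 or WT KLRG1lo replicate 5. Against 1 in Id2KO minus WT, there were 0 with quantile normalization, the replicate block, the spread covariate or WT KLRG1lo replicates 1 and 2 only, 13 with replicates 3 to 5 only and 0 to 1 with arrays left out. The calls held in 19 of 19 settings for Gzma and Gzmb, 18 for Fcgr2b, 17 for Prdm1, 13 for Havcr2, 12 for Gzmk and Cd244a, 9 for Rap1b and 7 for Entpd1, and that of Ctla4 in 8 of 18.

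Over all genes, 136 calls between the sorts became 225 with quantile normalization, 42 with the replicate block, 78 with only the groups compared, 376 with the spread covariate, 36 with WT KLRG1lo replicates 1 and 2 only, 255 with replicates 3 to 5 only, and 45 to 179 with arrays left out. In Id2KO minus WT, 16 became 5 with the block, 26 with only the groups compared, 6 and 708 with those subsets, and 4 to 39 with arrays left out. The causes of these shifts were not tested. The labels do not say whether equal replicate numbers mark paired samples. Deviations of same-numbered KLRG1hi and WT KLRG1lo arrays correlated at -0.18, 0.06 and -0.52, and those of unlike number at -0.67 to 0.65. Same-numbered Id2KO and WT KLRG1lo arrays correlated at 0.21 and 0.16. Those of Id2KOBimKO and BimKO correlated at -0.065, 1 value for both numbers, since deviations in a group of 2 mirror each other. These values do not settle whether the samples were paired.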
